A study of Mus musculus with 6 samples.

Results

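The proteasome is the large protease that degrades ubiquitin-tagged proteins in every nucleated cell. Its core particle is a barrel of alpha rings, which gate the entrance, and beta rings, which hold the catalytic sites. A regulatory particle caps the barrel: its base carries ATPases that unfold the substrate and thread it into the core, and its lid carries the enzyme that removes the ubiquitin chain. Tumour cells with a high rate of protein synthesis depend on it, and interferon exchanges the catalytic subunits for immunoproteasome forms. The genes described here are the proteasome subunit genes proper together with assembly chaperones, alternative activators and an inhibitor, chosen by their symbols (Psma, Psmb, Psmc, Psmd, Psme, Psmf or Psmg followed by a number). The immunoproteasome genes Psmb8, Psmb9 and Psmb10 were kept apart. This gave 45 genes on 16 chromosomes, of 18180 genes with usable values.

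RNA was sequenced in bulk from tumour cells sorted out of orthotopic pancreatic ductal adenocarcinomas (PDAC), grown in the pancreas of C57BL/6 mice and taken about 10 to 14 days later. There were 3 libraries titled KPC and 3 titled KPSC, and all 6 share the strain, the tumour site and the sort. The genotype field gives "Setd2 knockout" for the KPC libraries and "Wild type" for the KPSC libraries, although the letter S added in a title would more often stand for the altered allele, so the groups are called by their titles. Setd2 had 1338, 1099 and 1046 normalised reads in KPC replicates 1 to 3 and 859, 908 and 1042 in KPSC, so its RNA was not lower in the group labelled knockout (log2 fold change -0.31, limma adjusted p = 0.148). A deletion of some exons need not lower the reads of a whole gene, and no direction is tied to Setd2. Other alleles, the sort markers, the number of tumour clones and whether libraries came from separate animals are not given in the labels, so the p-values below rest on variation among 6 samples that may be technical.

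Depth was 14662710 to 17746969 reads per library over the listed genes. Epithelial markers, which are not specific to PDAC cells, were present in every library, at 0.385% to 0.480% of reads in KPC and 0.614% to 0.775% in KPSC. Of these markers, 5 of 6 were higher in KPSC by limma at an adjusted p under 0.05. Pancreatic acinar genes took 0.843% to 6.37% of reads in KPC and 0.349% to 16.4% in KPSC, where replicate 3 stood apart with the lowest share. Pan-leukocyte markers took 0.134% to 0.151% and 0.0724% to 0.123%. Fibroblast markers took 0.876% to 1.07% of reads in KPC and 0.541% to 1.48% in KPSC. Macrophage markers took 0.232% to 0.251% in KPC and 0.136% to 0.180% in KPSC. Islet markers took 0.0555% to 0.0661% in KPC and 0.00119% to 0.101% in KPSC. The part of these cell types in the results below was not tested. In bulk samples, fewer cells of a type and less RNA per cell cannot be told apart.

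Values are normalised reads, listed in the order of replicates 1, 2 and 3; ± gives the SD of 3 libraries. Fold changes compare KPSC with KPC and are differences of mean log2(value + 1), with their standard error (SE), and a gene is said to have risen or fallen where limma gave a Benjamini-Hochberg adjusted p under 0.05 over all 16737 genes tested.

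Of the 44 proteasome genes tested, 7 rose in KPSC, which is 15.9% of them, against 7.61% of all genes tested. They were Psmd14, Psmd6 and Psmd7 of the lid, Psmd1 and Psmc1 of the base, Psmb7 of the core and the assembly chaperone Psmd5. None fell by limma, against 6.76% of all genes tested; 2 were lower at an unadjusted p under 0.05 (14.3% of all genes tested) and 12 higher (14.7%). Lower calls numbered 1 by edgeR's quasi-likelihood test (8.28% of all genes tested) and 2 by DESeq2 (9.58%). Higher calls numbered 7 by edgeR (9.03% of all genes tested) and 8 by DESeq2 (10.6%). The sizes were modest: fold changes ran from -0.44 for Psmg2 to 0.75 for Psmd14, and 0 passed 1 on the log2 scale in either direction. The median over the 44 genes was 0.13, beside 0.01 over all genes tested. There were 30 positive and 14 negative fold changes, and the share of positive ones over all genes tested was not computed. The 3 KPSC libraries all lay above the 3 KPC libraries for 16 genes (36.4%), where 17.6% of all genes tested did so, and all below for 3 genes (6.82%), where 17.2% did. In the authors' deposited table, 8 of these genes were higher (8.56% of all 18180 genes) and 2 lower (7.65%) at an adjusted p under 0.05. Psmd14 and Psmd5 passed in all 6 fits that leave out a library. Without KPC replicates 1, 2 and 3 in turn, 3, 3 and 2 proteasome genes rose, beside 4.99%, 4.78% and 4.37% of all genes tested. Without KPSC replicates 1 and 2 in turn, 3 and 3 rose, beside 4.25% and 4.34%. Without KPSC replicate 3, the library that stood apart, 4 rose, beside 9.05%. Psmg2 fell by limma without KPC replicate 1, and none fell in the other 5 fits, where 3.49% of all genes tested fell in the first and 3.18%, 3.26%, 3.66%, 3.52% and 9.43% in the others.

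**Figure D1:**
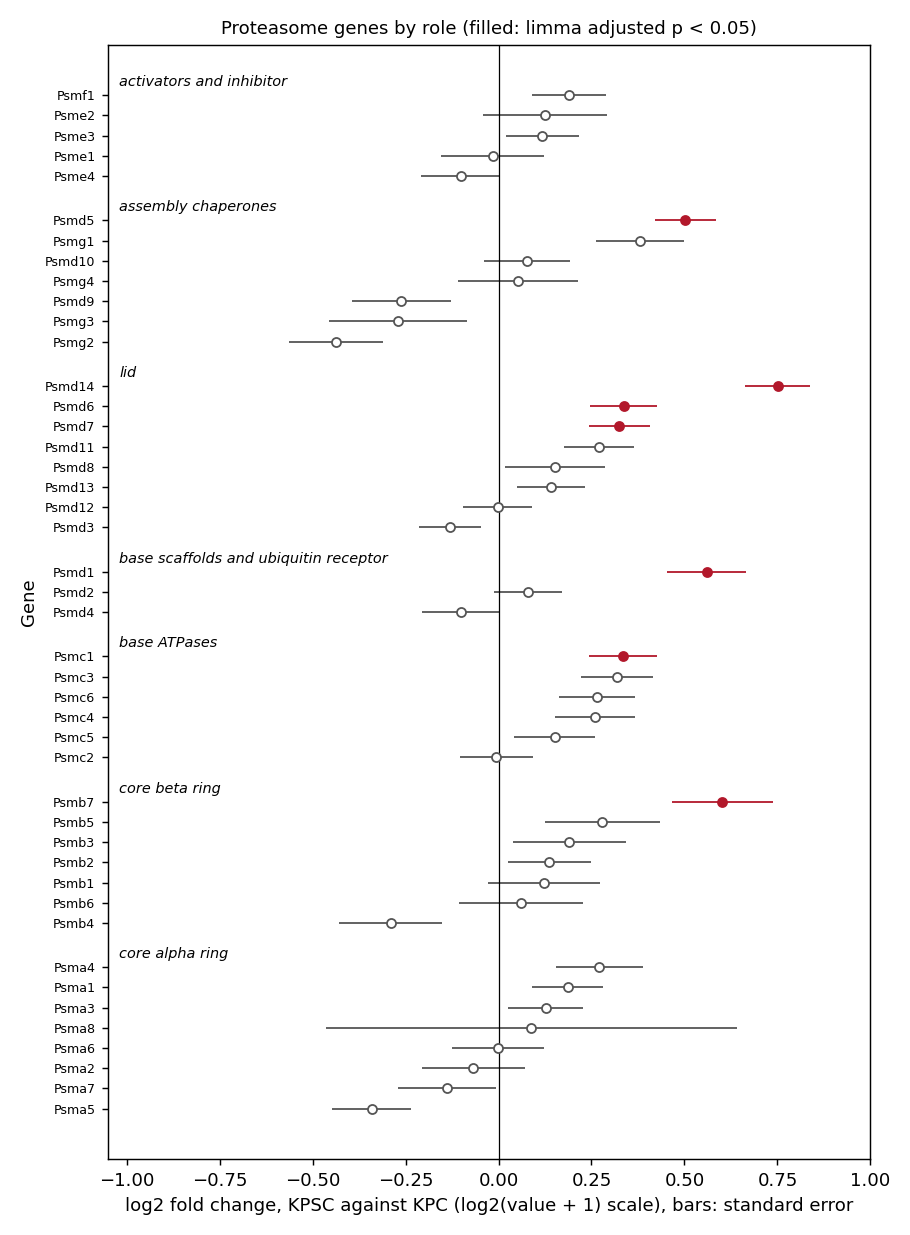
Log2 fold change of KPSC against KPC (x axis, log2(value + 1) scale) of each of the 44 proteasome genes tested, grouped by role; bars are the standard error and filled points have a limma adjusted p under 0.05. The 7 filled points lie between 0.32 and 0.75, in 5 of the 7 role groups, and the alpha ring and the activators hold none.

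The enzyme of the lid, Psmd14, changed most. It is the metalloprotease that cuts the ubiquitin chain off the substrate, and its gene lies on chromosome 2 (61711694 to 61800376, GRCm38). Psmd14 stood at 1017, 1078 and 1038 in KPC and at 1897, 1655 and 1730 in KPSC. The groups were far apart and did not overlap, with means of 1045 ± 31.1 and 1761 ± 124. The fold change was 0.75 (SE 0.09, limma adjusted p = 0.00194), a ratio of 1.68. Scaling to library size alone was the 1 alternative in which Psmd14 lost its call (0.56, limma adjusted p = 0.0549).

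Psmd7, the inactive partner that pairs with Psmd14 in the lid, stood at 1413, 1535 and 1415 in KPC and at 1857, 1789 and 1815 in KPSC. The KPSC libraries lay close together and above every KPC library (0.32, SE 0.08, limma adjusted p = 0.0362). Psmd6, a lid scaffold subunit, stood at 1117, 1216 and 1208 in KPC and at 1531, 1387 and 1556 in KPSC. These groups did not overlap either (0.34, SE 0.09, limma adjusted p = 0.0432). Both calls were lost without any 1 library, where the highest adjusted p was 0.118 for Psmd7 and 0.133 for Psmd6. The other lid subunits, all scaffolds around the enzyme, did not pass. Psmd11 had a fold change of 0.27, Psmd8 0.15, Psmd13 0.14, Psmd12 -0.0024 and Psmd3 -0.13. Per kilobase of the principal transcript, Psmd3 had the highest mean level of the lid (1627) and Psmd11 the lowest (520). Psmd3 stood at 3692, 3681 and 3584 in KPC and at 3352, 3360 and 3297 in KPSC. It was the 1 lid gene with every KPSC library below every KPC library, yet its fold change did not pass (limma adjusted p = 0.364). Psmd11 stood at 1427, 1394 and 1210 in KPC and at 1602, 1598 and 1650 in KPSC, again without overlap and without passing (limma adjusted p = 0.0968).

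In the base, 1 of 6 ATPases and 1 of the 3 other subunits rose. Over all genes tested 7.61% rose, and whether the roles differ in their share was not tested. Psmd1, the large scaffold that holds the ubiquitin receptor Adrm1, stood at 1714, 1516 and 1490 in KPC and at 2218, 2169 and 2577 in KPSC. The groups did not overlap (0.56, SE 0.10, limma adjusted p = 0.0127), and it no longer passed without KPC replicate 2 or 3, with a highest adjusted p of 0.0539. Psmd1 shares exon bases with Htr2b on the other strand and with Gm21972 on its own, and reads of such pairs cannot be told apart where the counting is not known to use strand. Of the 44 genes tested, 9 share exon bases with a gene on the other strand and 3 with one on their own. Psma5 (with 1700010K24Rik) and Psmc3 (with Slc39a13) are among the 9. Psmd2, the other scaffold, on which ubiquitin shuttles dock, stood at 4674, 4820 and 4550 in KPC and at 4953, 4854 and 5033 in KPSC (0.08, limma adjusted p = 0.632). Its groups did not overlap, but by little, and it had the highest mean of all 45 genes (4814). Psmd4, a receptor for ubiquitin chains, stood at 2239, 2765 and 2667 in KPC and at 2359, 2431 and 2331 in KPSC, with overlapping groups (-0.10, limma adjusted p = 0.587). Per kilobase it was the highest of these 3 (1851) and Psmd1 the lowest (626).

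The ATPases Psmc1 to Psmc6 form the ring that unfolds the substrate, and their median fold change was 0.26, the highest of the role groups. Psmc1 stood at 1766, 1973 and 2057 in KPC and at 2455, 2476 and 2372 in KPSC. The groups did not overlap (0.34, SE 0.09, limma adjusted p = 0.0475), and the call was lost without any 1 library, with a highest adjusted p of 0.137. Psmc3 had a fold change of 0.32 without overlap (limma adjusted p = 0.0641), and it was called by DESeq2 (adjusted p = 0.0225) and not by edgeR (adjusted p = 0.0585). Psmc4 had 0.26, Psmc6 0.26, Psmc5 0.15 and Psmc2 -0.0063. Psmc5, the highest ATPase per kilobase (1992), stood at 2278, 2598 and 2571 in KPC and at 2991, 2845 and 2448 in KPSC. Its groups overlapped, since KPSC replicate 3 lay below KPC replicates 2 and 3. Psmc6, the lowest per kilobase (726), stood at 1381, 1624 and 1416 in KPC and at 1826, 1630 and 1852 in KPSC, which did not overlap (limma adjusted p = 0.127).

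In the beta ring, 1 of 7 genes tested rose, where 7.61% of all genes tested did. Psmb7 encodes the subunit with trypsin-like activity, and it had the lowest level per kilobase of the 7 (1311). It stood at 1123, 1346 and 1143 in KPC and at 2125, 1846 and 1542 in KPSC. The KPSC values were spread widely and still lay above every KPC value (0.60, SE 0.14, limma adjusted p = 0.0250). The call was lost in 4 of the 6 fits without a library (KPC replicate 1 or 3, KPSC replicate 1 or 2), with a highest adjusted p of 0.0883. Psmb7 shares exon bases with Nek6 on the other strand. Its 2 catalytic partners gave lower values: Psmb5, with chymotrypsin-like activity, had 0.28 (limma adjusted p = 0.287), and Psmb6, with caspase-like activity, had 0.06 (limma adjusted p = 0.856). Psmb6 stood at 2639, 3385 and 3309 in KPC and at 3759, 3461 and 2574 in KPSC, so the highest and the lowest of the 6 libraries were both KPSC. Of the non-catalytic subunits, Psmb3 had 0.19, Psmb2 0.14, Psmb1 0.12 and Psmb4 -0.29, and none passed. Psmb3, the highest per kilobase (4040), stood at 2378, 3277 and 3032 in KPC and at 3615, 3454 and 2810 in KPSC, with overlap. Psmb11, the catalytic subunit of the thymus, was the 1 gene that was not tested: it had 0.910, 0.00 and 0.00 normalised reads in KPC and 2.42, 2.23 and 0.00 in KPSC.

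None of the 8 alpha ring genes rose or fell by limma, where 7.61% of all genes tested rose and 6.76% fell. In this ring 1 gene was lower at an unadjusted p under 0.05 (14.3% of all genes tested), 0 by edgeR (8.28%) and 1 by DESeq2 (9.58%). That gene was Psma5, at 2097, 2629 and 2221 in KPC and at 1897, 1752 and 1813 in KPSC. Every KPSC library lay below every KPC library (-0.34, SE 0.11, limma adjusted p = 0.0730). The other gate-forming subunits ran from -0.14 to 0.27: Psma4 had 0.27, Psma1 0.19, Psma3 0.13, Psma6 -0.00099, Psma2 -0.07 and Psma7 -0.14. Psma7, with the highest level per kilobase of all (4182), stood at 3478, 4420 and 4122 in KPC and at 4072, 3627 and 3217 in KPSC. Psma3, the lowest of the widely expressed alpha genes (522), stood at 1282, 1460 and 1524 in KPC and at 1636, 1437 and 1580 in KPSC. Both overlapped between groups. Psma8, the alpha subunit of the testis, was near background at 4.55, 10.9 and 11.9 in KPC and 13.3, 4.47 and 12.1 in KPSC (0.09, limma adjusted p = 0.941).

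Of the 7 assembly chaperones, 1 rose, Psmd5, where 7.61% of all genes tested did. Psmd5 helps to build the base and leaves before the particle is finished, and per kilobase it was the lowest of its group (187). It stood at 666, 675 and 699 in KPC and at 979, 942 and 970 in KPSC. Libraries within each group lay close together, with means of 680 ± 16.9 and 964 ± 19.5 (0.50, SE 0.08, limma adjusted p = 0.00730). The other base chaperones had 0.08 (Psmd10) and -0.26 (Psmd9). Psmg1 and Psmg2 work as a pair in assembling the alpha ring, and their fold changes had opposite signs. Psmg1 stood at 438, 463 and 551 in KPC and at 635, 666 and 583 in KPSC (0.38, SE 0.12, limma adjusted p = 0.0730). Psmg2 stood at 579, 722 and 772 in KPC and at 537, 488 and 494 in KPSC (-0.44, SE 0.13, limma adjusted p = 0.0584). Neither pair of groups overlapped and neither gene passed by limma, while Psmg2 was called lower by edgeR (adjusted p = 0.0455) and by DESeq2 (adjusted p = 0.0259), and by limma without KPC replicate 1 (adjusted p = 0.0284). Psmg3 and Psmg4, the second chaperone pair of the alpha ring, had -0.27 and 0.05. Psmg4, the highest chaperone per kilobase (608), stood at 260, 355 and 385 in KPC and at 347, 352 and 325 in KPSC, and its KPSC values lay inside the KPC range.

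None of the 5 activators and inhibitors passed by limma, edgeR or DESeq2, and 0 had an unadjusted p under 0.05. With 7.61% of all genes tested higher and 6.76% lower by limma, 0 of 5 is near those shares. Psmf1, an inhibitor of the core in vitro, had the smallest p and the lowest level per kilobase (169): it stood at 562, 624 and 620 in KPC and at 732, 637 and 693 in KPSC, without overlap (0.19, limma adjusted p = 0.254). Psme1 and Psme2 form an interferon-inducible cap. Psme1, the highest of the 5 per kilobase (2791), stood at 2786, 3018 and 3552 in KPC and at 2751, 2922 and 3595 in KPSC, nearly the same span in both groups (-0.02, limma adjusted p = 0.958). Psme2 had 0.12, Psme3, the nuclear activator, 0.12, and Psme4, which caps the core in germ cells and elsewhere, -0.10. Psme2 has a close intronless copy, Psme2b, listed at 859 ± 48.5 in KPC and 851 ± 87.4 in KPSC, and reads could be split between them. Levels per kilobase depend on the transcript chosen: with the length in the deposited table, the highest gene of the alpha ring was Psma5 (1566) and that of the beta ring Psmb4 (2259).

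Transcription of proteasome genes is known to be driven by NRF1, encoded by Nfe2l1, through antioxidant response elements, and by NF-Y through CCAAT boxes. Promoters of 37 of the genes, in 40 RefSeq entries (GRCm38.p6, 250 bases before to 50 after the start), were searched on both strands for the core TGACNNNGC and for CCAAT. Psmb1, Psmb2, Psmb7, Psmc3, Psmd3, Psmd7, Psma8 and Psmg2 were not matched. Shown are the promoters of Psmd14 (chr2:61711444-61711743, plus strand) and Psmd5 (chr2:34870913-34871212, minus strand), the 2 genes that kept their call without any 1 library, and of the catalytic genes Psmb5 (chr14:54617946-54618245, minus strand) and Psmb6 (chr11:70525107-70525406, plus strand), which hold the antioxidant core. Capitals mark the motif found, CCAAT or its complement in Psmd14 and the antioxidant core in Psmb5 and Psmb6.
Psmd14: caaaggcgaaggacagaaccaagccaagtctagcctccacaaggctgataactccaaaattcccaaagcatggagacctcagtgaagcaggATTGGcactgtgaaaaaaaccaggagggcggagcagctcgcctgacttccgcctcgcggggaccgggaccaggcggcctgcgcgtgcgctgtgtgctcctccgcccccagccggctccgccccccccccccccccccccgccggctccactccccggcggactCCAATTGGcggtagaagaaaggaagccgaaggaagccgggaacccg
Psmd5: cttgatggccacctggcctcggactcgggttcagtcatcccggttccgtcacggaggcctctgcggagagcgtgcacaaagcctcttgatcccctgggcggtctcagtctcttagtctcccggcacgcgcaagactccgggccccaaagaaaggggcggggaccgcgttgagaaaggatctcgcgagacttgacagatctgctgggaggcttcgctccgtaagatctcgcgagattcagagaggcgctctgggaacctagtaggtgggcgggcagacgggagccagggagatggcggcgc
Psmb5: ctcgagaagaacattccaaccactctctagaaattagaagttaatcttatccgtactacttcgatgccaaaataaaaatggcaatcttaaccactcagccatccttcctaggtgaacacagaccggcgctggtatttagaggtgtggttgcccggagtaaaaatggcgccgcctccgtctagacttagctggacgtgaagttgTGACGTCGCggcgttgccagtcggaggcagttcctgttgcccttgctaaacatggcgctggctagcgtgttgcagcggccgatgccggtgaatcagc
Psmb6: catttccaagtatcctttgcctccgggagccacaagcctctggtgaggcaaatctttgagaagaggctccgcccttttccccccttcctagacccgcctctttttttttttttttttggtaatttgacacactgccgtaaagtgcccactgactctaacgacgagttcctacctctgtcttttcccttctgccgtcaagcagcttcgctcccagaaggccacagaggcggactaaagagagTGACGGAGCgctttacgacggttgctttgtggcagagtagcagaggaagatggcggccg

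The core TGACNNNGC was found in 6 of the 40 promoters (15%), beside 12.4% of 32851 promoters in the same table, and CCAAT in 13 (32.5%), beside 37.4%. The capital run near the start of Psmd14 reads as CCAAT on both strands, overlapping itself, and no place in these promoters held both motifs at once. The 6 genes with TGACNNNGC were Psmb5, Psmb6, Psmc6, Psmd9, Psmd12 and Psme4. None of these 6 was called, and their fold changes ran from -0.26 for Psmd9 to 0.28 for Psmb5. Over all genes tested 7.61% rose and 6.76% fell by limma, so 0 of 6 is near those shares. The 2 genes that kept their call without any 1 library held no TGACNNNGC in this window, which only 12.4% of all promoters hold. The called genes Psmb7 and Psmd7 had no promoter to search. Whether the motif goes with the fold changes was not tested.

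The fold changes of the proteasome genes were next set beside those of other genes on the same chromosome, using expressed genes (mean of at least 50 normalised reads) that are not proteasome genes. On chromosome 3, Psma5, Psmb4 and Psmd4 all had negative fold changes, and the median of 613 other genes was -0.24. On chromosome 5, Psmc2, Psmd9 and Psmg3 were negative as well, and the median of 781 other genes was also -0.24. Psmg2 lies on chromosome 18, with a median of -0.36 over 306 genes, and Psmd1 on chromosome 1, with 0.39 over 722 genes. The 8 genes on chromosome 11 had a median of 0.09 and none was called, where the median of 1046 other genes was -0.0021. Over all genes tested 7.61% rose and 6.76% fell by limma. Psmd7 rose on chromosome 8, where the median of 653 genes was -0.02. Over the 44 proteasome genes, Pearson's r between a gene's fold change and its chromosome's median was 0.65. This is a description, as genes of a chromosome share that median and all values come from the same 6 libraries.

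Chromosome 2 held 3 of the 7 genes that rose, and its median over 950 other genes was 0.07. Along the chromosome the 6 proteasome genes came in the order Psmd5 (34.8 Mb), Psmb7 (38.6 Mb), Psmd14 (61.7 Mb), Psmc3 (91.1 Mb), Psmf1 (151.7 Mb) and Psma7 (180.0 Mb). Their fold changes in that order were 0.50, 0.60, 0.75, 0.32, 0.19 and -0.14. The medians of the 40 nearest expressed genes in the same order were 0.43, 0.41, 0.36, 0.00062, 0.06 and -0.29. Around Psmd5, 35 of 40 neighbours had positive fold changes and 22 rose by limma, and around Psmb7 33 of 40 were positive and 19 rose; these windows share 23 genes. Around Psma7, 8 of 40 were positive, 1 rose and 10 fell. Around Psmd14 the 40 neighbours spanned 12.8 Mb and were mixed: 24 were positive, 14 rose and 5 fell, with quartiles of -0.46 and 0.67, and 7 lay above Psmd14 itself.

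**Figure D2:**
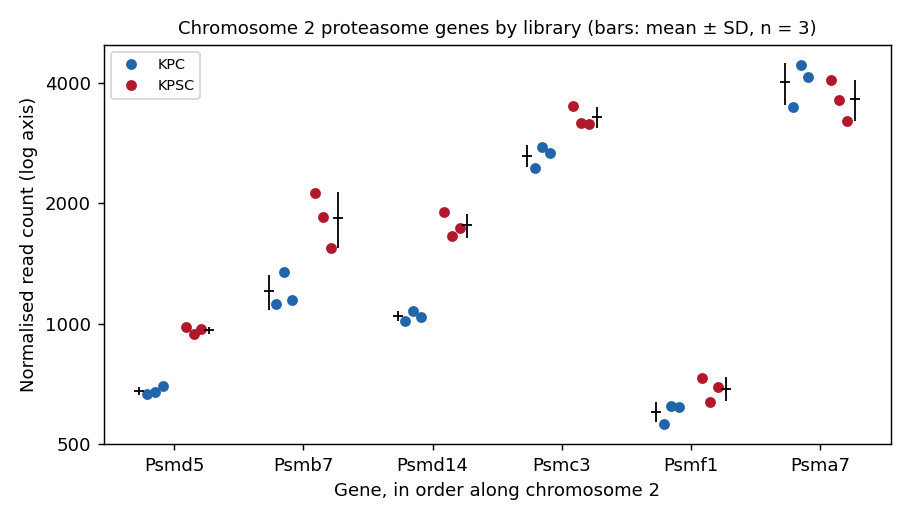
Normalised reads (y axis, log) of the 6 proteasome genes of chromosome 2, ordered by position, in the 3 KPC and 3 KPSC libraries; bars are mean ± SD of 3 libraries. The KPSC points lie above the KPC points from Psmd5 to Psmf1, and the groups overlap at Psma7.

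Over all 44 genes, Pearson's r between a gene's fold change and the median of its 40 nearest neighbours was 0.81, again a description, since windows overlap: Psmb4 and Psmd4 share all 40 neighbours, as do Psme1 and Psme2, and Psmc5 and Psmd12 share 32. Of the 44 genes, 32 lay above their neighbours' median, by a median of 0.13 over all 44. Above their chromosome's median lay 30, by a median of 0.12. A median splits the genes it is taken from evenly, and the share of all genes above such medians was not computed. The test was then repeated over all genes after the median of each chromosome had been subtracted in each library. These medians, and those of the 40 neighbours used below, were taken in each library with proteasome genes included. The amounts subtracted therefore differ from the medians of fold changes given above. In that fit 3 of the 44 genes rose, beside 5.4% of all genes tested: Psmd14 (0.67, limma adjusted p = 0.00328), Psmd5 (0.42, limma adjusted p = 0.0158) and Psmd7 (0.34, limma adjusted p = 0.0328). Psmd1 then had 0.18 (limma adjusted p = 0.277). With the median of the 40 neighbours subtracted, only Psmd14 rose, 1 of 44 beside 4.92% of all genes tested, at 0.44 (limma adjusted p = 0.0334). The neighbours of Psmd14 were split, with 14 risen, 5 fallen and quartiles of -0.46 and 0.67, so their median describes neither part. Whether Psmd14 differs from its risen neighbours was not tested. In the same fit Psmd5 had 0.05 (limma adjusted p = 0.770) and Psmb7 0.20 (limma adjusted p = 0.425). None fell by limma in either fit, beside 5.47% and 5.04% of all genes tested.

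**Figure D3:**
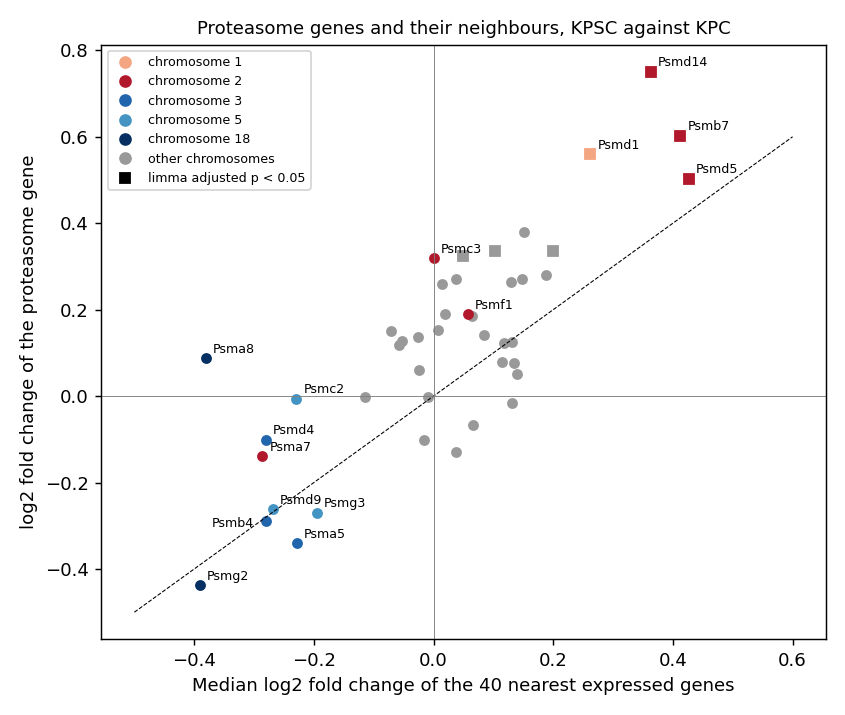
Log2 fold change of each of the 44 proteasome genes (y axis) against the median log2 fold change of its 40 nearest expressed genes (x axis), KPSC against KPC; squares have a limma adjusted p under 0.05, colours mark chromosomes and the dashed line marks equal values. The genes of chromosomes 3 and 5 and Psmg2 of chromosome 18 lie at the lower left, Psma8 of chromosome 18 lies above 0 at the far left, Psmd5, Psmb7 and Psmd14 at the upper right, and 32 genes lie above the line.

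The libraries within a group also differed in the whole gene set. For the 43 genes with a mean over 100, KPC replicate 1 held the lowest of the 6 values for 28, and KPSC replicate 1 held the highest for 22. Among the 14 core ring genes of these, KPC replicate 1 was the lowest of its group for 14 and KPSC replicate 1 the highest of its group for 14. Relative to each gene's mean over the 6 libraries, the median core gene deviated by -0.25, 0.10 and 0.02 in KPC and by 0.15, 0.05 and -0.12 in KPSC. The remaining genes deviated by -0.19, -0.02 and -0.04 in KPC and by 0.16, 0.02 and 0.08 in KPSC. In KPSC replicate 3, then, the core genes lay low while the other genes did not, and the core values of the groups overlapped. The median fold change over the proteasome genes, 0.13 with every library, was 0.05 without KPC replicate 1 and 0.09 without KPSC replicate 1. In sum the genes took 0.521%, 0.589% and 0.533% of all reads in KPC and 0.456%, 0.510% and 0.581% in KPSC, with overlap. Acinar genes took 2.15%, 0.843% and 6.37% in KPC and 16.4%, 8.35% and 0.349% in KPSC, so the proteasome share was highest where the acinar share was lowest in either group; the part of the acinar reads in it was not tested.

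**Figure D4:**
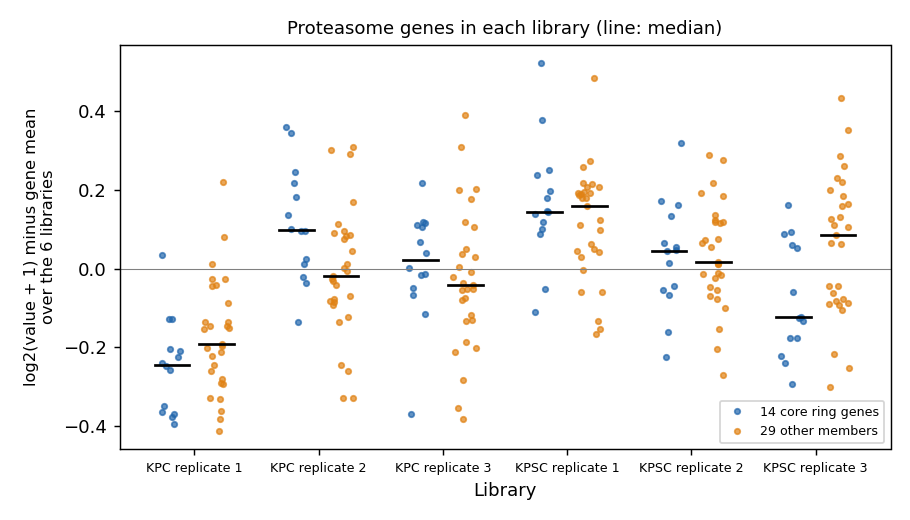
Deviation of each proteasome gene's log2(value + 1) from its own mean over the 6 libraries (y axis), by library (x axis), for the 14 core ring genes and the remaining genes with a mean over 100; lines are medians. KPC replicate 1 lies lowest (-0.25 for core genes), and in KPSC replicate 3 the core genes (-0.12) lie below the others (0.08).

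The immunoproteasome subunits Psmb8, Psmb9 and Psmb10 replace Psmb5, Psmb6 and Psmb7 and are abundant in leukocytes. None of the 3 passed by limma, where 7.61% of all genes tested rose and 6.76% fell. Lower at an unadjusted p under 0.05 was 1 of them (14.3% of all genes tested), with 0 by edgeR (8.28%) and 1 by DESeq2 (9.58%). Psmb8, with the smallest p, stood at 1941, 2003 and 2661 in KPC and at 1211, 1497 and 1808 in KPSC (-0.55, SE 0.18, limma adjusted p = 0.0763). The groups did not overlap. Psmb9 had -0.32 (limma adjusted p = 0.424) and Psmb10 0.05 (limma adjusted p = 0.875). Without KPSC replicate 3, both Psmb8 and Psmb9 were called lower (limma adjusted p = 0.0175 and 0.0206). In that fit 9.43% of all genes tested fell, against 6.76% with every library. Per kilobase, Psmb10 stood to Psmb7 at ratios of 1.28, 1.24 and 2.003 in KPC and 0.883, 0.932 and 1.22 in KPSC. Every KPSC ratio was below every KPC ratio, a log2 difference of -0.55 (exact two-sided permutation p = 0.1, the smallest that 3 against 3 allows), and Psmb7 itself rose. The ratio of Psmb8 to Psmb5 was 0.783, 0.611 and 0.866 in KPC and 0.289, 0.415 and 0.611 in KPSC, which overlapped narrowly (-0.83, exact two-sided permutation p = 0.2). The ratio of Psmb9 to Psmb6 was 0.282, 0.223 and 0.281 against 0.129, 0.172 and 0.366, with overlap (-0.38, exact two-sided permutation p = 0.6). Of 8 pan-leukocyte markers, 2 fell by limma, with a list median of -0.40, beside 6.76% of all genes tested. All 8 had a negative fold change and none was at 0 in any library. Of 9 lymphocyte markers 5 fell (list median -1.33), of 8 macrophage markers 2 (-0.47) and of 6 neutrophil markers 2 (-0.89). Positive fold changes were seen for 1 macrophage and 2 neutrophil markers, and none rose by limma. Lymphocyte markers took 0.00814% to 0.0105% of reads in KPC and 0.00233% to 0.00548% in KPSC. Neutrophil markers took 0.0322% to 0.0740% in KPC and 0.0172% to 0.0243% in KPSC. The part of leukocyte RNA in these ratios was not tested. With 3 ratios compared, the Benjamini-Hochberg adjusted permutation values cannot pass 0.05.

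**Figure D5:**
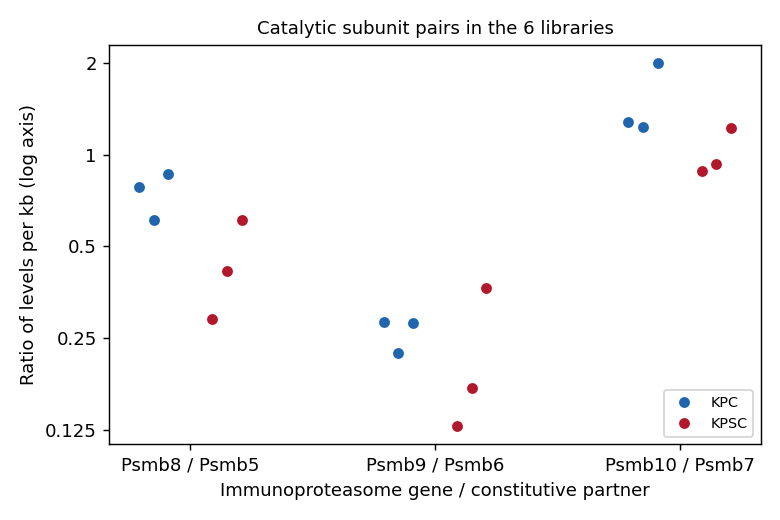
Ratio of normalised reads per kilobase (y axis, log) of each immunoproteasome gene to the constitutive gene it replaces, in the 3 KPC and 3 KPSC libraries. The groups are separate for Psmb10 to Psmb7 (1.24 and above in KPC, 1.22 and below in KPSC) and overlap in the other 2 pairs.

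Genes that work with the proteasome without carrying its symbols were read from lists chosen with earlier results of these data known, and are described beside the 7.61% of all genes tested that rose and the 6.76% that fell. Of 13 associated factors tested, 2 rose: Uchl5, a deubiquitinase that docks on the base (0.63, SE 0.15, limma adjusted p = 0.0309), and Akirin2, which carries proteasomes into the nucleus (0.33, SE 0.09, limma adjusted p = 0.0486). Uchl5 stood at 322, 384 and 430 in KPC and at 662, 604 and 498 in KPSC, without overlap. It lies on chromosome 1 and had 0.26 with the chromosome median subtracted (limma adjusted p = 0.391) and 0.17 with that of the 40 neighbours subtracted (limma adjusted p = 0.654). Akirin2 lost its call without any 1 library (highest limma adjusted p = 0.152) and Uchl5 without KPC replicate 1 or 2 or KPSC replicate 1 or 2 (highest 0.104). By edgeR 2 of the list were higher and 1 lower (9.03% and 8.28% of all genes tested), and by DESeq2 3 and 1 (10.6% and 9.58%). At an unadjusted p under 0.05, 4 were higher and 1 lower (14.7% and 14.3%). The list median was 0.06. The docking site of Uchl5, Adrm1, had 0.11, the core assembly factor Pomp -0.24 and the lid component Sem1 -0.15, and none passed by limma. Of 16 genes that control proteasome transcription, 1 rose, Ngly1, the glycanase that helps to activate NRF1 (0.47, SE 0.11, limma adjusted p = 0.0309). Ngly1 stood at 384, 338 and 408 in KPC and at 547, 497 and 515 in KPSC, without overlap. It passed in 1 of the 6 fits without a library, that without KPSC replicate 3 (highest limma adjusted p = 0.109). With the chromosome median or that of the 40 neighbours subtracted, 0 genes of this list rose, so Ngly1 lost its call in both fits. Higher genes of the list numbered 1 by edgeR (9.03% of all genes tested), 2 by DESeq2 (10.6%) and 4 at an unadjusted p under 0.05 (14.7%). Nfe2l1 itself had 0.08 (limma adjusted p = 0.702) and Nfe2l2, which encodes NRF2, 0.26 (limma adjusted p = 0.0678); the list median was 0.07.

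Of 10 NRF2 target genes, 2 rose and 1 fell, with a list median of 0.24. The rises were in G6pdx, of the pentose phosphate pathway (0.55, SE 0.09, limma adjusted p = 0.00689), and Srxn1, which repairs peroxiredoxins (0.53, SE 0.11, limma adjusted p = 0.0172). Gclm, the modifier subunit of glutathione synthesis on chromosome 3, fell (-0.80, SE 0.11, limma adjusted p = 0.00322). Srxn1 lost its call without KPC replicate 1 or 3 or KPSC replicate 1 (highest limma adjusted p = 0.0670), while G6pdx and Gclm kept theirs without any 1 library. Of 6 ubiquitin and ubiquitin-activating genes none passed by limma, edgeR or DESeq2 and 0 had an unadjusted p under 0.05; the smallest p was that of Uba1, the main activating enzyme (0.12, limma adjusted p = 0.437), and the list median was -0.15. Of 11 shuttle and segregase genes none passed by limma or edgeR. By DESeq2 1 was higher (10.6% of all genes tested), and 2 were higher at an unadjusted p under 0.05 (14.7%). The smallest p was that of Ufd1, a cofactor of the segregase VCP (0.34, limma adjusted p = 0.0635), and the list median was 0.20.

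A pair of complexes with their own subunit genes gives a comparison. The COP9 signalosome is related to the lid in its subunits, and 4 of its 9 genes rose, with a list median of 0.38. Cops5, its metalloprotease and the counterpart of Psmd14, stood at 1011, 1210 and 1036 in KPC and at 1857, 1594 and 1537 in KPSC, without overlap (0.61, SE 0.11, limma adjusted p = 0.0115). Cops8 (0.50, limma adjusted p = 0.00901) and Cops7b (0.45, limma adjusted p = 0.0300) also lie on chromosome 1, and Cops7a (0.38, limma adjusted p = 0.0350) on chromosome 6. Cops7a and Cops7b passed without KPSC replicate 3 and in no other fit without a library (highest limma adjusted p = 0.117 and 0.105), Cops5 lost its call without KPC replicate 3 (0.0503), and Cops8 kept its call without any 1 library. With the chromosome median subtracted, Cops5 had 0.24 (limma adjusted p = 0.255), Cops8 0.12 (limma adjusted p = 0.434), Cops7b 0.07 (limma adjusted p = 0.761) and Cops7a 0.33 (limma adjusted p = 0.0534). With the median of the 40 neighbours subtracted, Cops7a kept its call (0.37, limma adjusted p = 0.0492), and Cops5 had 0.27 (limma adjusted p = 0.209), Cops7b 0.18 (limma adjusted p = 0.414) and Cops8 0.06 (limma adjusted p = 0.735). Of the 8 genes of the CCT chaperonin, which folds actin and tubulin, none passed by limma or edgeR. By DESeq2 1 was higher (10.6% of all genes tested), and 1 was higher at an unadjusted p under 0.05 (14.7%). Cct8 had the smallest p (0.33, limma adjusted p = 0.0877), and the list median was 0.16. Whether these lists differ from the proteasome genes was not tested.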

How the data were processed

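The submitters' processing notes name mm10 and CASAVA 1.7; the sources used here do not give the aligner, counter, annotation or strand use. The authors' deposited table (25450 rows, 18185 with values) holds a signal per library, a read count divided by a size factor, and gene positions and lengths in bases. It also holds the authors' deposited p-values and adjusted p-values and group means. Multiplied by size factors of 0.828 to 1.19, 100% of values came out whole within 0.01. Left out were 5 rows with damaged symbols.

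limma 3.58.1 in R 4.3.3 (eBayes with a mean-variance trend) ran on log2(value + 1) for 16737 genes that reached 1 in 3 or more libraries, and p-values were Benjamini-Hochberg adjusted (threshold 0.05); the pseudocount understates changes of low genes. edgeR 4.0.16 and DESeq2 1.42.0 on recovered reads were alternatives, beside other scalings, filters, pseudocounts, a replicate block and leaving out each library. Lengths are of GENCODE M21 principal transcripts (GRCm38), which matched 18170 of 18180 IDs. limma and edgeR were tested on simulated data. Tables and figures used Python 3.11.15, pandas 2.3.3 and matplotlib 3.10.9.

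All proteasome genes are named. Values by library are given for called proteasome genes, the smallest p of a role without calls, the extremes per length and the gene below the filter; Psmb6, Psmd2, Psmg1, Psmg2, Psmb8, Uchl5, Ngly1 and Cops5 were given theirs after values were seen; list genes are named if called, or else by smallest p, and Nfe2l1, Nfe2l2, Adrm1, Pomp and Sem1 were added by function after their values were seen. Genes and lists were chosen with earlier results of these data known.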

Additional observations from a re-analysis of the deposited data

How the results depend on the processing

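The 7 proteasome genes that rose by limma became 0 under library size scaling, 3 without the variance trend, 3 with the chromosome median and 1 with the local median subtracted, and 2 to 4 when each library was left out. All-gene shares are not given for the other scalings, filters and pseudocounts, limma-voom, the fit without the variance trend or the replicate block. Shifts under those settings, here and in the lists, cannot be told apart from shifts over all genes. The 0 that fell became 1 with TMM scaling, 1 with edgeR, 2 with DESeq2 and 0 to 1 without a library. Library size scaling moved the median over all genes from 0.01 to -0.18 and that of the proteasome genes from 0.13 to -0.066, a distance of 0.12 in both; without single libraries the latter ran from 0.05 to 0.19, and the median distance from the chromosome medians from 0.04 to 0.15. Over the pathway lists, the 9 genes that rose became 0 under library size scaling, 4 without the variance trend, 2 and 4 with chromosome and local medians subtracted, and 3 to 11 without a library. The 1 that fell became 2 with TMM, a mean of at least 10, edgeR and limma-voom, 3 with DESeq2, and 1 to 3 without a library. Uba1 turned to -0.071 under library size scaling (limma adjusted p = 0.839). Without a library, the log2 ratio differences ran from -1.11 to -0.56 (Psmb8 to Psmb5), -0.81 to -0.05 (Psmb9 to Psmb6) and -0.69 to -0.33 (Psmb10 to Psmb7). Same-numbered libraries did not deviate together from their group means over expressed genes (correlations of -0.12, -0.35 and -0.46). These correlations do not exclude pairing by number, and the titles do not settle it. With a replicate block 1 proteasome gene rose (Psmd14, limma adjusted p = 0.0244) and 1 list gene. Other filters and pseudocounts left the proteasome counts within 1.5 times. The cause of these shifts was not tested. With 3 libraries a group, changes within the spread between libraries were not detectable.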
